A study of Mus musculus with 2 samples.

Results

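Barcodes that carried a hepatic stellate cell program and a sinusoidal endothelial program together were examined in single-cell RNA libraries from fibrotic mouse liver. Members were selected on measured values. Each barcode needed a mitochondrial share of at most 5% and at least 2000 detected genes, with no upper limit on genes or unique molecular identifiers (UMIs, the counted RNA molecules). It also needed at least 15 UMIs per 10000 from Lrat, Ecm1, Hgf and Reln together, and at least 8 UMIs per 10000 from Kdr, Stab2 and Ptprb together. This gave 577 mixed barcodes of 17098 that passed the mitochondrial and gene limits and of 19955 deposited. There were 270 in the p16-LRTD library and 307 in the p16-Alb-LRTD library.

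Both libraries were prepared from stellate cells of male C57BL/6 mice after repeated injection of carbon tetrachloride (CCl4, a hepatotoxin that produces fibrosis) over 4 weeks, with tamoxifen and diphtheria toxin. The p16-Alb-LRTD mice carried p16-CreERT2, Alb-DreERT2 and the reporter allele R26-CAG-LSL-RSR-tdTomato-2A-DTR, so that the toxin receptor needs both recombinases and is meant to be limited to hepatocytes with high p16 expression, which the toxin is meant to remove. The study names leaky expression of the receptor past the stop cassette as a possible limit of this model. The p16-LRTD control mice received the same agents and lacked Alb-DreERT2. There was 1 library per genotype. How many mice each library pooled, and their age, were not given in the sources used here. The cells came from enzymatic digestion and a Nycodenz density gradient without a sort, and the libraries were 10x 3' v3.1. No test was possible between single libraries. Each difference between genotypes is a difference between 2 libraries. The 95% intervals given here cover counting error or, for medians, the spread between barcodes or genes. None covers differences between mice.

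Hepatic stellate cells store retinoids and wrap around the liver sinusoids as pericytes. They become the main source of fibrillar collagen when the liver is injured. The sinusoidal endothelium lies directly against them. It is thin and fenestrated, clears macromolecules through scavenger receptors such as the stabilins, and supplies the neighbouring cells with BMP and Wnt ligands. A barcode in a droplet library marks 1 droplet, and a droplet may hold 1 cell, more than 1 cell, or cells that did not come apart. The counts alone do not show which of these a mixed barcode was, and no doublet caller was run, since such barcodes are the subject here.

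The mixed barcodes made up 2.87% (2.54 to 3.23) of the 9408 barcodes kept from p16-LRTD and 3.99% (3.57 to 4.45) of the 7690 kept from p16-Alb-LRTD. The barcodes past the stellate limit alone, called stellate-only, numbered 8169 and 6768. Those past the endothelial limit alone, called endothelial-only, numbered 466 and 296. Of all barcodes past the endothelial limit, 36.7% (33.2 to 40.3) in p16-LRTD and 50.9% (46.8 to 55.0) in p16-Alb-LRTD were also past the stellate limit. All 4 stellate genes of the rule were themselves higher in p16-Alb-LRTD. Their median log2 ratio to p16-LRTD was 0.36 in mixed and 0.25 in stellate-only barcodes. The part of that in the difference between these shares was not tested. In p16-Alb-LRTD there were more mixed than endothelial-only barcodes, and in p16-LRTD there were fewer. Under the upper limits of the study, 7000 genes and 50000 UMIs, there were fewer mixed barcodes in both, with 180 against 435 in p16-LRTD and 197 against 288 in p16-Alb-LRTD. Kupffer cells, the resident macrophages of the sinusoid, gave lower shares by the same reading. Of barcodes at 8 or more UMIs per 10000 from Clec4f, Vsig4 and Cd5l, 24.3% (20.04 to 28.9) and 19.2% (14.4 to 24.9) were also past the stellate limit, and 2.90% (1.46 to 5.13) and 2.56% (0.947 to 5.50) were also past the endothelial limit. All 3 limits were passed by 5 barcodes in p16-LRTD and 1 in p16-Alb-LRTD.

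**Figure D1:**
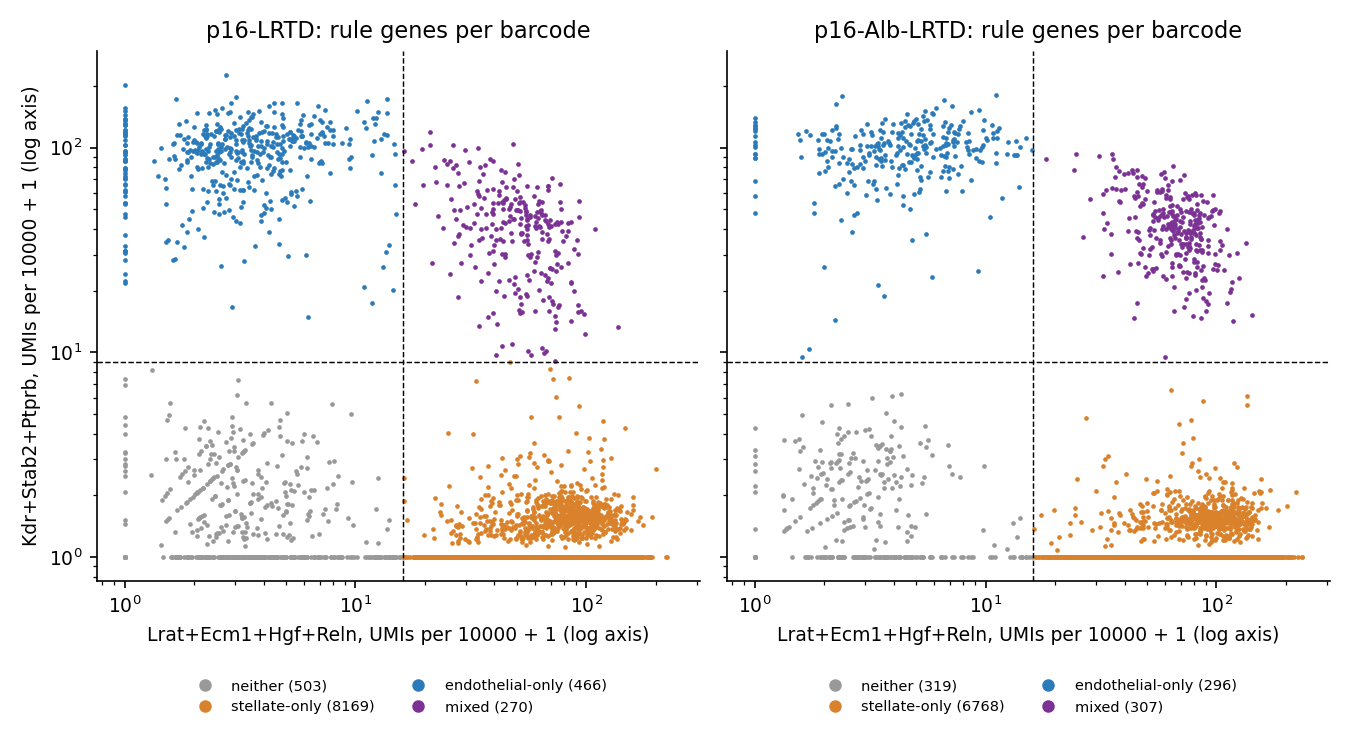
Each point is 1 kept barcode, placed by the summed UMIs per 10000 of Lrat, Ecm1, Hgf and Reln on the x axis and of Kdr, Stab2 and Ptprb on the y axis, both plus 1 on log axes, with dashed lines at the limits of 15 and 8. The 270 mixed barcodes of p16-LRTD and the 307 of p16-Alb-LRTD are in purple, stellate-only barcodes in orange and endothelial-only barcodes in blue. The axes are the sums that define the classes, so the classes are separated by construction.

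The sums that chose the members were well away from the limits in most barcodes. The median stellate sum of the mixed barcodes was 50.4 per 10000 UMIs in p16-LRTD and 66.2 in p16-Alb-LRTD, against 85.1 and 96.7 in stellate-only barcodes. Their median endothelial sum was 40.6 and 39.0, against 96.0 and 97.8 in endothelial-only barcodes. Closest to the stellate limit in p16-LRTD were barcodes at 15.3 and 16.7 inside it and at 13.9 and 13.8 outside. In p16-Alb-LRTD these values were 17.3 and 23.2 inside and 14.9 and 14.0 outside. Closest to the endothelial limit were 8.06 and 8.65 inside and 7.99 and 7.34 outside in p16-LRTD, and 8.53 and 13.2 inside and 5.57 and 5.14 outside in p16-Alb-LRTD. Among the barcodes past the endothelial limit, 29 of 736 and 18 of 603 had a stellate sum between 10 and 20. Among those past the stellate limit, 17 of 8439 and 5 of 7075 had an endothelial sum between 4 and 12.

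Depth, which entered the rule only through the lower gene limit, set the mixed barcodes apart. Their median was 29247 UMIs (27307 to 31880) in p16-LRTD and 33690 (32824 to 34779) in p16-Alb-LRTD. The stellate-only medians were 17304 and 18270 UMIs, and the endothelial-only medians were 12600 and 12278. The mixed barcodes thus held 1.69 and 1.84 times the UMIs of the stellate-only barcodes and 2.32 and 2.74 times those of the endothelial-only barcodes. When the stellate-only and endothelial-only medians were added, the sums were 29904 and 30547 UMIs, and the mixed median was 0.978 and 1.10 times that sum. Detected genes followed the same order, with medians of 6430 and 6684 in mixed, 4719 and 4756 in stellate-only and 4125 and 3976 in endothelial-only barcodes. The median mitochondrial share of the mixed barcodes, 2.51% and 2.48%, lay between the stellate-only medians of 2.47% and 2.13% and the endothelial-only medians of 2.80% and 3.02%.

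**Figure D2:**
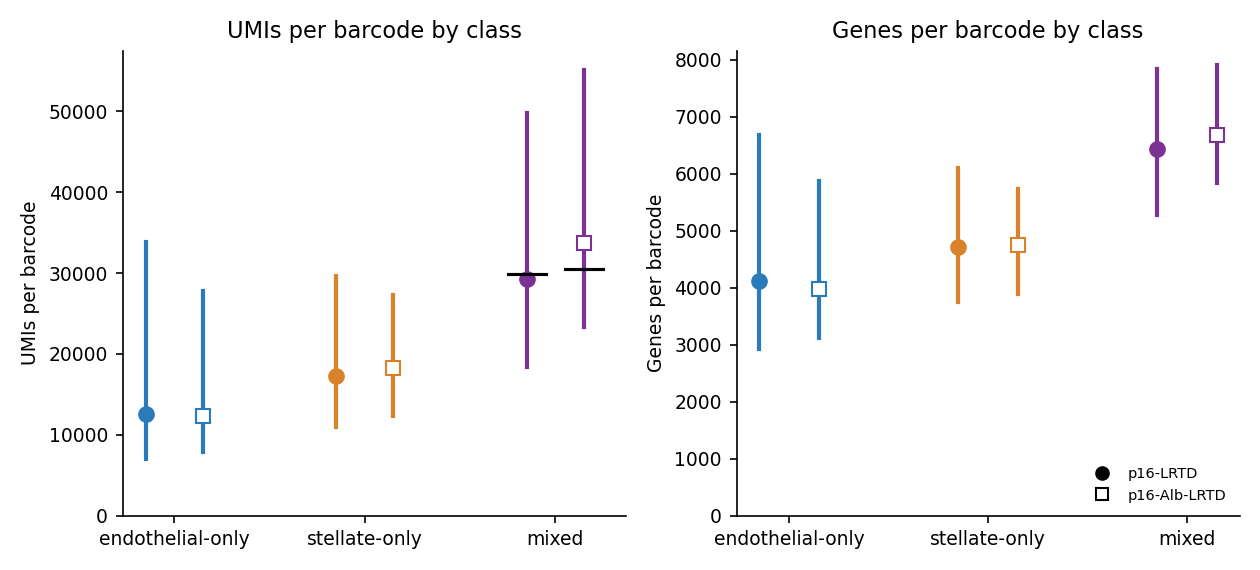
UMIs per barcode (left) and genes per barcode (right) for endothelial-only, stellate-only and mixed barcodes, with circles for p16-LRTD and open squares for p16-Alb-LRTD at the median and lines from the 10th to the 90th percentile of barcodes. Black bars mark the sum of the endothelial-only and stellate-only medians, 29904 and 30547 UMIs, beside mixed medians of 29247 and 33690.

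The upper limits that the study set on cells left most of the mixed barcodes in place. Within those limits lay 180 of the 270 in p16-LRTD, or 66.7% (60.7 to 72.3), and 197 of the 307 in p16-Alb-LRTD, or 64.2% (58.5 to 69.5). For stellate-only barcodes these shares were 96.9% and 98.1%. The mixed barcodes within the limits had median depths of 24446 and 29676 UMIs, still above the stellate-only medians.

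Single genes outside the rule separated the classes to different degrees. The stellate genes Dcn, which encodes the matrix proteoglycan decorin, and Colec11, a collectin, were compared after every barcode had been thinned to 10000 UMIs. Dcn was found in 100% of the mixed barcodes of both libraries, but also in 77.5% and 88.2% of endothelial-only barcodes, so its presence told little. Colec11 was present in 99.2% (97.3 to 99.9) of 266 thinned mixed barcodes in p16-LRTD and in 100% (98.8 to 100) of 307 in p16-Alb-LRTD, against 28.5% and 27.4% of endothelial-only barcodes. Pecam1, an adhesion molecule of endothelial junctions, was present in 90.2% (86.0 to 93.5) and 88.9% (84.9 to 92.2) of the mixed barcodes. In stellate-only barcodes, which should lack it, Pecam1 was found in 1.49% and 1.14%. Clec4g, a sinusoidal lectin, was present in 96.2% and 96.7% of mixed barcodes but also in 18.7% and 9.96% of stellate-only barcodes. Presence by gene list separated less. At least 3 UMIs of the stellate identity list and 3 of the general endothelial list were found in 99.6% and 100% of mixed barcodes, in 83.7% of stellate-only barcodes of each library, and in 75% and 97.6% of endothelial-only barcodes. That stellate list holds Cyp26b1, which was higher in endothelial-only barcodes. Without it, a choice made after seeing the data, the endothelial-only shares were 68.4% and 82.5%, and the mixed and stellate-only shares were as before. Thinning left out 4 mixed, 539 stellate-only and 150 endothelial-only barcodes of p16-LRTD, and 0, 249 and 84 of p16-Alb-LRTD. Before thinning, Pecam1 was present in 97.8% and 98.7% of mixed and 2.62% and 2.42% of stellate-only barcodes.

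Of the 6 genes in the working label of these barcodes, Lrat, Ecm1, Stab2 and Kdr belong to the rule. The other 2, Cyp26b1 and Bmp6, lay on the endothelial side in these libraries. Cyp26b1 (chromosome 6, 84571414 to 84593908, GRCm38) encodes a retinoic acid hydroxylase and had been listed here as a stellate identity gene. Its level was 0.753 and 2.04 CPM (a gene's UMIs per 1000000 UMIs of the class) in stellate-only barcodes, 62.5 and 926 CPM in endothelial-only barcodes, and 33.2 and 480 CPM in mixed barcodes, for p16-LRTD and p16-Alb-LRTD respectively. Bmp6, the ligand through which the endothelium instructs hepatocyte iron sensing, was at 2.07 and 3.85 CPM in stellate-only, 554 and 759 CPM in endothelial-only and 246 and 372 CPM in mixed barcodes. At 10000 UMIs, Bmp6 was present in 71.1% (65.2 to 76.4) and 85.7% (81.2 to 89.4) of mixed barcodes, against 1.65% and 2.42% of stellate-only barcodes.

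Each library's mixed barcodes were then set against a weighted sum of its own stellate-only and endothelial-only profiles. The weights were fitted to the counts of all genes but the 7 of the rule. The endothelial part was 46.2% of the summed UMIs in p16-LRTD and 44.2% in p16-Alb-LRTD. Fitted barcode by barcode, its median was 44.8% (42.1 to 47.9) and 40.6% (39.2 to 42.0), with a 10th to 90th percentile of 21.5% to 71.2% and 28.7% to 61.3%. Between 20% and 80% lay 238 of 270 and 289 of 307 barcodes. The endothelial part corresponded to a median of 11882 and 13499 UMIs, against 12600 and 12278 UMIs in an endothelial-only barcode. The stellate part corresponded to 15909 and 18976 UMIs, against 17304 and 18270 UMIs in a stellate-only barcode. In p16-LRTD the mixed barcodes over the study's upper limits had a higher endothelial part, with a median of 52.7% against 40.0% within the limits. The same medians in p16-Alb-LRTD were 48.9% and 39.3%.

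**Figure D3:**
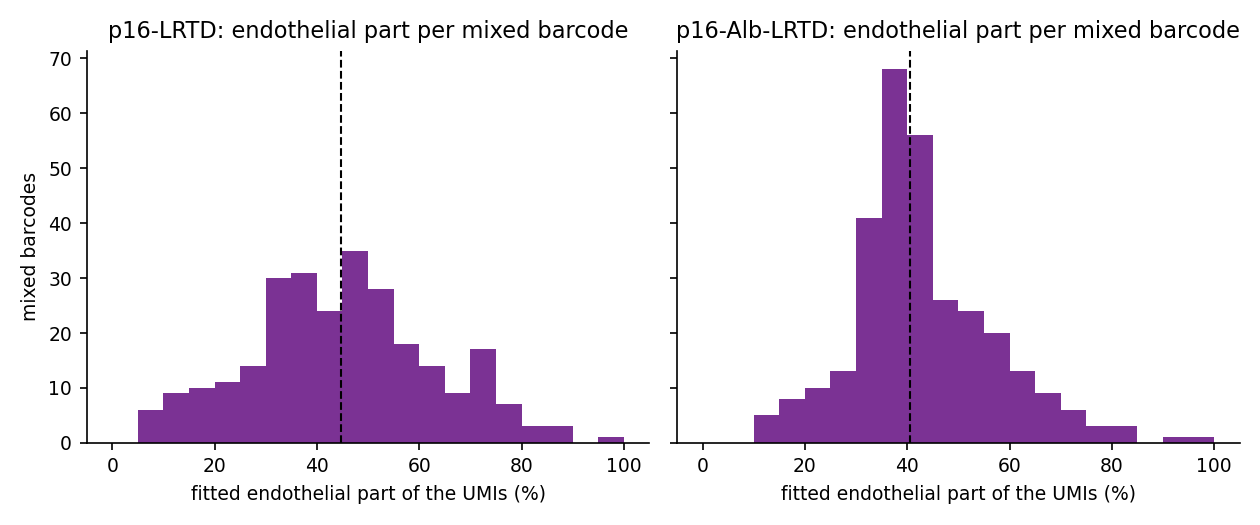
Number of mixed barcodes (y axis) by the fitted endothelial part of their UMIs in percent (x axis, bins of 5), for p16-LRTD on the left and p16-Alb-LRTD on the right. Dashed lines mark the medians of 44.8% and 40.6%, and most barcodes lie between 20% and 80%.

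Endothelial genes were closer to the fitted weight than stellate genes. In p16-LRTD, 467 genes were at least 8-fold higher in endothelial-only than in stellate-only barcodes at 20 CPM or more. Their level in mixed barcodes was, at the median gene, 48.2% of the endothelial-only level, with quartiles of 45.0% and 52.0%. For 464 such genes in p16-Alb-LRTD the median was 46.0%, with quartiles of 43.0% and 49.3%. The 578 and 565 genes 8-fold higher in stellate-only barcodes were at a median of 59.1% and 62.0% of the stellate-only level. Their quartiles were wider, at 49.3% and 68.7% in p16-LRTD and 50.3% and 72.5% in p16-Alb-LRTD.

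Most genes were close to the fitted mix. At 50 CPM or more in the mixed barcodes or in the mix, 94.0% of 4306 genes in p16-LRTD and 92.0% of 4189 genes in p16-Alb-LRTD were within 1.25-fold of it, and 99.0% and 98.9% were within 1.5-fold. In p16-LRTD, 4 genes (0.0929% of those examined) were at least 2-fold above the mix and 1 (0.0232%) at least 2-fold below. In p16-Alb-LRTD, 1 gene (0.0239%) was 2-fold above and 10 (0.239%) were 2-fold below. The total of 5 in p16-LRTD was 12 under the upper limits of the study and 15 with the limits of the rule doubled, and the total of 11 in p16-Alb-LRTD was 5 without barcodes past the Kupffer limit. At 20 CPM the totals were 21 and 44. The 1 gene above the mix in both libraries was Clstn2, which encodes the synaptic adhesion protein calsyntenin 2, and the 1 below in both was Cpxm1, which encodes a secreted carboxypeptidase-like protein. Since the members were chosen on these same counts, the distances from the mix are given as a description.

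Among the 4 genes above the mix in p16-LRTD, S100a8 and S100a9, calcium-binding proteins abundant in neutrophils, came from 1 barcode. It held 694 of the 695 S100a8 UMIs and all 778 S100a9 UMIs of the mixed barcodes, with 63588 UMIs in total. In p16-Alb-LRTD, S100a8 had 2 UMIs and S100a9 had 0 UMIs, which allows up to 0.266 CPM. Without that barcode, 4 rather than 5 genes of p16-LRTD were 2-fold off the mix, an alternative added after the data had been seen. The last gene above was Nmnat2, a NAD synthesis enzyme, with 59.2 CPM against 24.7 CPM in the mix.

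Among genes at 50 CPM or more in both libraries, those furthest above the mix in both were Clstn2, Lsamp, Vipr1, Ngfr, Kcnq5, Itih4, Piezo2 and Sgip1. Each was higher in stellate-only than in endothelial-only barcodes. Clstn2 (chromosome 9, 97444395 to 98033181) was at 138 CPM against a mix of 62.7 CPM in p16-LRTD, and at 56.5 against 24.2 CPM in p16-Alb-LRTD. Its log2 ratio to the mix was 1.14 and 1.22. Vipr1, a receptor for vasoactive intestinal peptide, was at 778 against 420 CPM and 794 against 445 CPM. For Ngfr, the low-affinity neurotrophin receptor, the values were 166 against 91.3 CPM and 121 against 69.2 CPM. Lsamp, a neural adhesion protein, was at 773 against 418 CPM and 457 against 237 CPM. Vipr1 was found in 268 of the 270 and 306 of the 307 mixed barcodes, and Clstn2 in 145 and 99. No single barcode held over 5.96% of the UMIs of Clstn2 or over 2.39% of those of Lsamp in either library.

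**Figure D4:**
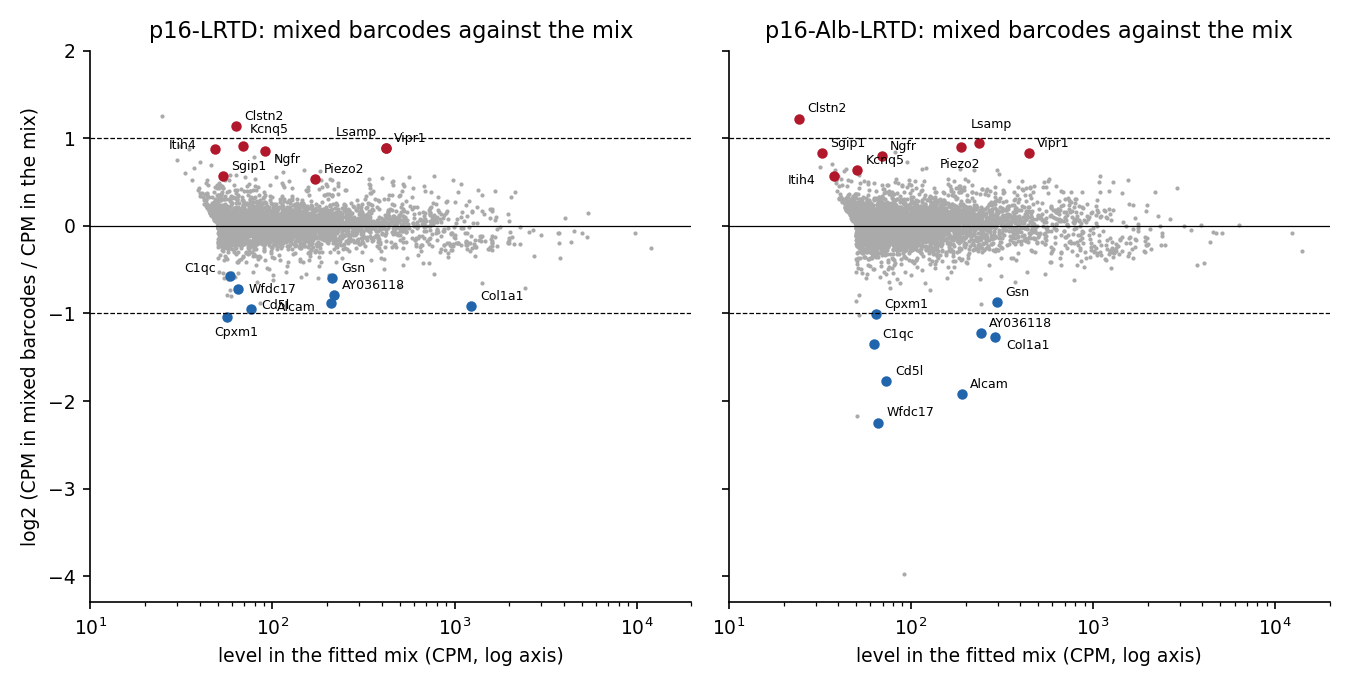
Each grey point is a gene at 50 CPM or more, with its level in the fitted mix on the x axis (CPM, log axis) and the log2 ratio of its level in mixed barcodes to the mix on the y axis, for p16-LRTD (left) and p16-Alb-LRTD (right). Dashed lines mark 2-fold, and the 8 genes furthest above (red) and below (blue) in both libraries are named. S100a8 and S100a9 of p16-LRTD lie outside the axes.

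Genes of stellate position in the lobule were unevenly represented. Of all genes at 5 CPM or more on average over mixed barcodes and mix, 17.9% of 10618 in p16-LRTD were above the mix beyond counting error and 16% below, and in p16-Alb-LRTD 23.5% of 10378 were above and 22.7% below. Their median log2 ratios were 0.0037 and -0.0018. All 3 genes of a portal stellate list were above the mix in both libraries, beyond counting error. These were Ngfr, Igfbp3, a binding protein for insulin-like growth factors, and Il34, a ligand of the CSF1 receptor. Summed over the list, the mixed barcodes held 1490 CPM against 988 in the mix in p16-LRTD and 1252 against 915 CPM in p16-Alb-LRTD, giving log2 ratios of 0.59 and 0.45. All 4 genes of a central stellate list, Adamtsl2, Spon2, Loxl1 and Podn, were below the mix in both libraries. Their sum was 135 against 205 CPM and 107 against 143 CPM, log2 ratios of -0.60 and -0.42. Per barcode at 10000 UMIs, 8.05% (5.05 to 12.04) of 261 and 3.32% (1.60 to 6.02) of 301 mixed barcodes had more central than portal stellate UMIs. Among stellate-only barcodes the shares were 17.9% (17.1 to 18.8) and 9.75% (9.03 to 10.5). The mixed barcodes hold fewer stellate UMIs at this depth than stellate-only barcodes do, and the part of that in these shares was not tested.

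On the endothelial side, the central list (Wnt2, Wnt9b, Thbd, Kit) summed to 233 against 192 CPM in the mix of p16-LRTD, a log2 ratio of 0.28, with 3 of 3 genes above beyond counting error. In p16-Alb-LRTD it was 467 against 436 CPM, a ratio of 0.10, with 2 of 4 above. The portal list (Dll4, Efnb2, Adgrg6, Ntn4) was at log2 ratios of -0.10 and 0.04. More central than portal endothelial UMIs were present in 38.6% (32.3 to 45.2) of 233 mixed barcodes of p16-LRTD and 56.7% (50.7 to 62.6) of 282 of p16-Alb-LRTD. The endothelial-only shares were 33.6% (28.2 to 39.2) and 55.4% (48.3 to 62.4). The side of the lobule was then compared within barcodes. In p16-LRTD, 9.20% of 87 mixed barcodes with a central endothelial side had a central stellate side, against 7.09% of 141 with a portal endothelial side, a difference of 2.10 percentage points (-4.96 to 10.6). In p16-Alb-LRTD the shares were 4.49% of 156 and 0.826% of 121, a difference of 3.66 points (-0.70 to 8.20). Both intervals included 0, and they rest on 18 and 8 barcodes with a central stellate side. At a depth of 5000 UMIs the differences were -3.78 points (-10.5 to 5.10) and 5.93 points (1.31 to 11.3), so p16-LRTD changed sign and the p16-Alb-LRTD interval no longer included 0. Under the study's upper limits they were 0.61 points (-5.71 to 11.0) and -1.32 points (-9.40 to 5.47), so there p16-Alb-LRTD changed sign.

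Genes of fibrogenic activation were mostly below the mix. Of 15 at 5 CPM or more in p16-LRTD, 11 were below the mix beyond counting error and 2 above, with a median log2 ratio of -0.39. In p16-Alb-LRTD it was 9 below and 4 above of 13, with a median of -0.31. Over all genes, 16% and 22.7% were below. Mixed barcodes had to pass the same stellate limit as stellate-only barcodes with only part of their RNA from the stellate side. Stellate cells low in the stellate genes of the rule could thus be missed among them, and the part of that here was not tested. With the rule's limits doubled, the log2 ratio of the summed list went from -0.38 to -0.51 in p16-LRTD. In p16-Alb-LRTD it went from -0.21 to -0.18. Col1a1 (chromosome 11, 94936224 to 94953042), a chain of type I collagen, was at 658 CPM against a mix of 1239 CPM in p16-LRTD and at 121 against 292 CPM in p16-Alb-LRTD, log2 ratios of -0.91 and -1.26. Col3a1, the chain of type III collagen, was at 1486 against 2429 CPM and at 516 against 792 CPM. Acta2, smooth muscle actin, was at 16.4 against 33.8 CPM and at 0.532 against 7.50 CPM, but 65 of its 142 UMIs in p16-LRTD came from 1 barcode, and p16-Alb-LRTD held 6 UMIs in all. Fn1, fibronectin, went the other way, at 729 against 523 CPM and 533 against 390 CPM. Alcam, a cell adhesion molecule of the immunoglobulin family that belonged to none of the lists, was at 115 against 210 CPM and 50.3 against 191 CPM. With 197 of 989 Alcam UMIs, 1 barcode of p16-LRTD held 19.9%. Gsn, the actin-severing protein gelsolin, was at 141 against 213 CPM and 163 against 297 CPM, and Cpxm1 at 27.2 against 56.1 CPM and 32.0 against 64.5 CPM. AY036118, a noncoding transcript, was at 125 against 217 CPM and 104 against 242 CPM.

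Cell division genes were below the mix as well. Of 11 proliferation genes at 5 CPM or more in p16-LRTD, 11 were below it beyond counting error, and in p16-Alb-LRTD 4 of 4, with median log2 ratios of -1.30 and -1.10. The summed list was at -0.96 in p16-LRTD, at -2.02 with the rule's limits doubled and at -1.42 under the study's upper limits. In p16-Alb-LRTD these values were -0.85, -0.70 and -0.47. The limit that the rule sets on activation genes applies here too. Mki67, a marker of cycling cells, was at 7.18 against 24.2 CPM and 1.68 against 6.31 CPM, and was found in 10 and 3 mixed barcodes. Within those, 1 barcode held 56.5% of the Mki67 UMIs in p16-LRTD and 84.2% in p16-Alb-LRTD. Basement membrane genes lay on the other side, with 7 of 8 above the mix in each library and medians of 0.22 and 0.21. Beyond counting error, 17.9% and 23.5% of all genes were above the mix and 16% and 22.7% below. Col4a1, a type IV collagen chain, was at 1372 against 1161 CPM and 847 against 740 CPM. Lama4, a laminin chain of vessels and the exception, was at 139 against 143 CPM and 101 against 112 CPM.

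Stellate signalling genes were divided, with more above than below the mix. Of 12 in p16-LRTD, 7 were above and 3 below beyond counting error, and of 11 in p16-Alb-LRTD, 9 were above and 1 below. The shares over all genes were 17.9% above and 16% below in p16-LRTD, and 23.5% and 22.7% in p16-Alb-LRTD. Notch3, a pericyte receptor for ligands on endothelial cells, was at 46.4 against 21.3 CPM and 12.9 against 7.29 CPM, in 97 and 62 mixed barcodes. Cxcl12, a chemokine of stromal cells, was at 1842 against 1608 CPM and 2201 against 1958 CPM. Of 9 endothelial signals, 3 were above and 1 below in p16-LRTD, and 5 above and 1 below in p16-Alb-LRTD. Pdgfb, the growth factor that recruits pericytes, was at 44.2 against 39.9 CPM and 9.48 against 10.9 CPM. Jag1, a Notch ligand, was at 71.3 against 50.7 CPM and 42.1 against 34.3 CPM. The general and sinusoidal endothelial lists were near the mix, with medians of 0.05 in both libraries. Of 14 sinusoidal genes, 8 were above and 2 below beyond counting error in p16-LRTD, and 9 above and 1 below in p16-Alb-LRTD. For the 11 general genes these counts were 5 and 0 in p16-LRTD, and 5 and 1 in p16-Alb-LRTD.

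Markers of the other cell types that the gradient fraction could hold were measured in the same barcodes. The 13 Kupffer genes summed to 348 CPM against a mix of 474 in p16-LRTD and 208 against 502 CPM in p16-Alb-LRTD. In stellate-only barcodes the sums were 270 and 262 CPM, and in endothelial-only barcodes 712 and 806 CPM. Cd163 was at 0 in the mixed barcodes of p16-LRTD and no Kupffer gene was at 0 in p16-Alb-LRTD. The 5 mixed barcodes past the Kupffer limit in p16-LRTD held 85.3% of its Kupffer UMIs, and the 1 in p16-Alb-LRTD held 32.6%. This bears on Cd5l, C1qc and Wfdc17, 3 of the 8 genes furthest below the mix. When all barcodes past the Kupffer limit were left out, profiles included, the Kupffer list of p16-Alb-LRTD went from -1.27 to 0.29 relative to the mix on the log2 scale, and that of p16-LRTD from -0.45 to -1.38. Within the upper limits of the study the list was at -2.63 in p16-LRTD and -2.53 in p16-Alb-LRTD. Hepatocyte genes, 15 in number, summed to 147 and 159 CPM, against 138 and 178 CPM in the mix. Lymphocyte genes summed to 1.04 and 0.354 CPM, with 7 and 9 of 10 at 0. Mesothelial and portal fibroblast genes summed to 77.9 against 113 CPM in the mix and 55.7 against 108 CPM. Cholangiocyte genes summed to 2.08 and 0.975 CPM, and erythroid and platelet genes to 37.9 and 35.3 CPM. Leaving out barcodes past the Kupffer limit put the mixed shares at 2.93% in p16-LRTD and 4.10% in p16-Alb-LRTD. Genes 2-fold off the mix went from 5 to 6 and from 11 to 5. The genotype log2 ratio of Col1a1 went from -2.44 to -2.48. The part of the other cell types in the other results was not tested. Cd74, an antigen presentation gene, was at 5.85 CPM against a mix of 91.8 CPM in p16-Alb-LRTD and at 19.0 against 25.9 CPM in p16-LRTD.

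Between genotypes, the mixed barcodes of p16-Alb-LRTD differed from those of p16-LRTD by 2-fold or more in 96 of 4393 genes at 50 CPM in either library. Of these, 57 (1.3% of genes examined) were higher and 39 (0.888%) were lower. The median log2 ratio of all 4393 genes was -0.03. With edgeR's TMM scaling factor in place of total counts, every log2 ratio was shifted by 0.11, and the split became 83 higher and 29 lower. For comparison, 1.12% of genes were 2-fold higher and 0.575% lower in stellate-only barcodes, and 1.73% and 1.34% in endothelial-only barcodes. A genotype ratio in mixed barcodes can come from either program, so ratios are also given for the single class, or both, in which a gene was mainly found.

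Some of the largest ratios belonged to the endothelial program. Cyp26b1 had a log2 ratio of 3.85 (3.68 to 4.03) in mixed barcodes and 3.89 (3.75 to 4.03) in endothelial-only barcodes. At 10000 UMIs it was present in 16.2% (11.95 to 21.2) of mixed barcodes in p16-LRTD and 84.4% (79.8 to 88.2) in p16-Alb-LRTD. The endothelial-only shares were 28.5% and 87.7%, and the stellate-only shares, the background, were 0.695% and 1.63%. Before thinning, 31.1% and 93.2% of mixed barcodes held a Cyp26b1 UMI. The central endothelial genes Wnt2, a Wnt ligand for pericentral hepatocytes, and Thbd, the thrombin receptor thrombomodulin, were at 51.4 and 149 CPM and at 55.6 and 144 CPM, log2 ratios of 1.54 and 1.38. In endothelial-only barcodes these ratios were 1.68 and 1.96. Rasd1, a small GTPase, was at 18.8 and 90.04 CPM with a ratio of 2.26, against 2.46 in endothelial-only barcodes.

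On the lower side of the endothelial program stood Esm1, a secreted proteoglycan of endothelial cells. Its level was 166 CPM in p16-LRTD and 15.8 in p16-Alb-LRTD, for a log2 ratio of -3.40 (-3.63 to -3.17). Endothelial-only barcodes were at 362 and 52.5 CPM. Pdgfb had a ratio of -2.22 (-2.54 to -1.91) in mixed and -1.83 in endothelial-only barcodes. Dll4, a Notch ligand of the portal and arterial side, was at 91.7 and 36.0 CPM, a ratio of -1.35, against -1.21 in endothelial-only barcodes. Exoc3l4 was at 63.9 and 19.9 CPM, with ratios of -1.69 and -2.18. Lyve1, a hyaluronan receptor, was at 516 and 293 CPM, with ratios of -0.82 and -0.76. The sinusoidal list as a whole had a median log2 ratio of 0.07 in mixed barcodes and 0.11 in endothelial-only barcodes, with 8 genes higher and 5 lower beyond counting error among 14. Over the 10439 genes at 5 CPM or more on average, 17.9% were higher and 31.8% lower beyond counting error, and the median was -0.09.

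Zbtb16, a zinc finger transcription factor, differed in both programs. It was at 36.1 CPM in the mixed barcodes of p16-LRTD and 608 CPM in those of p16-Alb-LRTD, which gives a log2 ratio of 4.07 (3.91 to 4.24). It was found in 133 of 270 and 306 of 307 of them. The ratio was 3.44 in stellate-only and 6.24 in endothelial-only barcodes. Rsad2, an interferon-induced antiviral enzyme, was at 35.7 and 151 CPM, with a ratio of 2.08 in mixed, 1.77 in stellate-only and 1.64 in endothelial-only barcodes. Xdh, xanthine dehydrogenase, was at 90.9 and 329 CPM, with ratios of 1.85, 1.30 and 2.13. Serpina3g, a serine protease inhibitor with near-identical neighbours that can share its reads, was at 29.4 and 99.7 CPM, with ratios of 1.76 in mixed, 1.89 in stellate-only and 1.11 in endothelial-only barcodes. Tmem100 lay on the stellate side, at 28.5 and 99.2 CPM in mixed barcodes and 52.4 and 176 CPM in stellate-only barcodes.

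**Figure D5:**
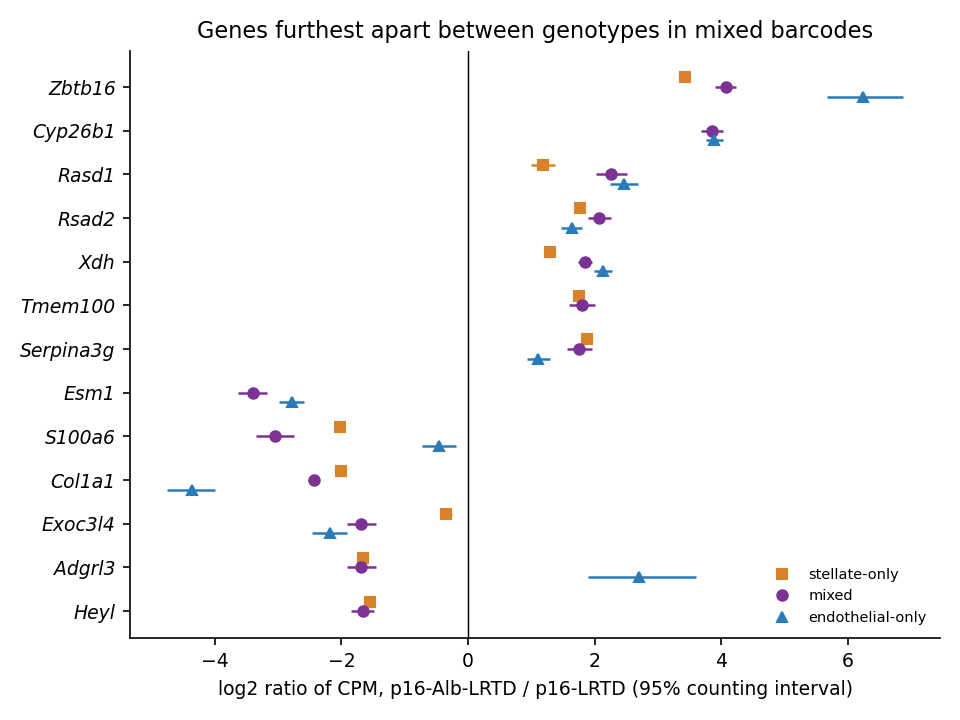
Log2 ratio of CPM, p16-Alb-LRTD over p16-LRTD (x axis), with 95% counting intervals as lines, for the genes furthest apart in mixed barcodes (purple circles), shown also in stellate-only (orange squares) and endothelial-only (blue triangles) barcodes where the gene reached 5 CPM. Zbtb16 was highest in mixed barcodes at 4.07, Esm1 lowest of those shown at -3.40, and S100a8 and S100a9, from 1 barcode, were left out.

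Collagen and other activation genes were lower in the mixed barcodes of p16-Alb-LRTD. Col1a1 was at 658 and 121 CPM, a log2 ratio of -2.44 (-2.52 to -2.35). The ratio was -2.01 (-2.02 to -1.996) in stellate-only barcodes, at 2058 and 512 CPM. In endothelial-only barcodes, with 283 and 13.7 CPM, it was -4.37. With the rule's limits doubled, the ratio in mixed barcodes was -2.02. Col3a1 was at 1486 and 516 CPM, with a ratio of -1.53 in mixed and -1.64 in stellate-only barcodes, and Col1a2 was at 907 and 475 CPM, with ratios of -0.93 and -1.26. Of 14 activation genes, 12 were lower and 1 higher beyond counting error, and 6 were 2-fold lower, with a median of -0.91. Of all 10439 genes at that level, 31.8% were lower and 17.9% higher beyond counting error, and 1.81% were 2-fold lower. Mmp2, a matrix-degrading protease, was the one higher, at 64.4 and 75.2 CPM, with ratios of 0.23 in mixed and 0.20 in stellate-only barcodes. Stellate-only barcodes had 14 of 15 lower, with a median of -1.17, where 47.2% of all 10267 genes were lower beyond counting error and 28% higher. S100a6, a calcium-binding protein of that list, was at 78.3 and 9.48 CPM, but 1 barcode held 45.7% of its UMIs in p16-LRTD and 1 held 67.3% in p16-Alb-LRTD. Its ratio was -3.05 in mixed, -2.03 in stellate-only and -0.46 in endothelial-only barcodes.

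Heyl, Notch3, Adgrl3 and Hand2 each had ratios on the same side of 0 in mixed and stellate-only barcodes. The stellate identity list as a whole was divided. Beyond counting error, 8 were higher and 5 lower of 17 in mixed barcodes, and 9 higher and 7 lower of 16 in stellate-only barcodes. For all genes at 5 CPM or more on average these shares were 17.9% and 31.8% in mixed, and 28% and 47.2% in stellate-only barcodes. Heyl, a transcription factor downstream of Notch, was at 94.1 and 29.7 CPM, with a log2 ratio of -1.66 in mixed and -1.55 in stellate-only barcodes. Notch3 had ratios of -1.84 and -1.58. Adgrl3, an adhesion receptor, was at 63.6 and 19.8 CPM, with ratios of -1.69 and -1.66, while endothelial-only barcodes were at 1.997 and 13.0 CPM. Hand2, a stellate lineage transcription factor, was at 170 and 361 CPM, with ratios of 1.09 and 0.91. All 8 basement membrane genes were lower beyond counting error, with a median of -0.47, the same as over 7 genes in stellate-only barcodes. All 7 proliferation genes at 5 CPM or more on average were lower, with a median of -2.26. The list medians were -2.94 over 12 genes in stellate-only and -0.85 over 11 in endothelial-only barcodes.

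Genes of the LIFR pathway, a cytokine pathway the study examined in stellate cells, had positive medians in all 3 classes. Lifr, the receptor for leukaemia inhibitory factor, was at 738 and 871 CPM in mixed barcodes, a log2 ratio of 0.24 (0.19 to 0.28). The ratio was -0.26 (-0.28 to -0.24) in stellate-only and 0.67 (0.61 to 0.72) in endothelial-only barcodes, so for Lifr the classes lay on opposite sides of 0. Il6st, the shared signalling subunit gp130, was at 694 and 920 CPM, with ratios of 0.41, -0.02 and 0.65. Of the 7 genes, 6 were higher and 1, Bcl3, was lower beyond counting error in mixed barcodes, with a median of 0.34. Among all 10439 genes at 5 CPM or more on average, 17.9% were higher and 31.8% lower. In stellate-only barcodes 4 were higher and 2 lower, with a median of 0.20, where 28% of all genes were higher and 47.2% lower. The endothelial-only median was 0.65. Genes induced by tissue dissociation were mostly higher as well. Of 14, 12 were higher beyond counting error in the mixed barcodes of p16-Alb-LRTD, against 17.9% of all genes, with a median of 0.57. The same list had medians of 0.56 in stellate-only and 0.79 in endothelial-only barcodes. The part of dissociation in the other ratios was not tested.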

How the data were processed

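Raw counts of UMIs, one matrix for each library, were deposited by the authors, whose processing notes name Cell Ranger 7.0.1 and mm10. The files hold 31054 features, and coordinates are from GENCODE vM21 (GRCm38). There were 11149 barcodes with 193746596 UMIs in p16-LRTD and 8806 with 162219167 in p16-Alb-LRTD. Of barcode sequences, 95 occurred in both libraries, and 0 were members in both. All later values were computed here from those counts (Python 3.11.15, numpy 2.4.6, scipy 1.17.1), with no doublet caller. The members and gene lists were chosen with earlier results of these data known. Counts were summed over the barcodes of a class and given as CPM of that sum. The mix weights were maximum-likelihood estimates by expectation-maximisation, and the fits were tested on simulated data. Intervals are exact Poisson for counts, exact conditional for ratios, Clopper-Pearson for shares, Newcombe for differences of shares, and order-statistic for medians. Those of counts, ratios and shares cover counting error only, and those of medians cover the spread between barcodes or between genes of a list. None covers differences between mice, since UMIs of 1 library and barcodes of 1 library are not replicates. Genes on either side of the mix beyond counting error had a Poisson interval that excluded the mix. Shares of barcodes with a UMI were taken after thinning to 10000 UMIs. Named genes are list members and, by a rule of size, the 8 highest and 8 lowest off the mix in both libraries and between genotypes, at 50 CPM, without mitochondrial, ribosomal, haemoglobin and Y-linked genes, Xist, Tsix and the genes of the member rule. Alternatives changed the upper, mitochondrial and gene limits, the limits of the rule, the profiles, the CPM minimum and the scaling. 1 gene of the genotype comparison is not reported here. Nmnat2 and Cd74 were named after their values had been seen. TMM factors came from edgeR 4.0.16.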

Additional observations from a re-analysis of the deposited data

Results flagged for a closer look

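Reads of the tdTomato reporter lie outside the comparisons above. The transcript was at 2.55 CPM (1.60 to 3.86) in the mixed barcodes of p16-LRTD and 4.61 CPM (3.44 to 6.04) in those of p16-Alb-LRTD, from 22 and 52 UMIs. Both are above the level that 3 UMIs would give, 0.347 and 0.266 CPM. In stellate-only barcodes it was at 3.02 and 6.09 CPM and in endothelial-only barcodes at 2.37 and 4.19 CPM.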

How the results depend on the processing

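No paired analysis was possible because there was 1 library per genotype. Of 119 recomputed values that answer a comparison, 101 stayed within the interval of the main value, or for counts within 1.5 times. For list medians that interval spans the genes of the list and is hard to leave. It was -2.44 to -0.31 for the activation list and -0.46 to 0.43 for the sinusoidal list. For the endothelial part of summed UMIs, the width was borrowed from the per-barcode median. The difference in central stellate share changed sign in both libraries, to -3.78 points in p16-LRTD at 5000 UMIs and to -1.32 in p16-Alb-LRTD under the study's upper limits, and at 5000 UMIs it was 5.93 (1.31 to 11.3) in p16-Alb-LRTD. Under the study's upper limits the share of mixed barcodes was 1.999% in p16-LRTD and 2.66% in p16-Alb-LRTD, the depth ratio to stellate-only barcodes 1.43 and 1.64, the endothelial part 40.0% per barcode in p16-LRTD and 41.3% and 40.4% of summed UMIs, the genes 2-fold off the mix 12 in p16-LRTD, and the Col1a1 log2 ratio -2.57. With both limits of the rule doubled, the p16-LRTD share was 2.19% with 15 genes off the mix, and the Col1a1 ratio was -2.02. The Col1a1 ratio was -2.35 with the mean of per-barcode CPM and -2.33 with TMM scaling. Genes off the mix numbered 5 in p16-Alb-LRTD without barcodes past the Kupffer limit, and 21 and 44 at 20 CPM. The cause of these differences was not tested. Of 160 values for single genes and lists, 119 stayed within the counting interval, 40 moved without a change of direction and 1 changed direction, the Kupffer list of p16-Alb-LRTD, at 0.29 without barcodes past the Kupffer limit. Under the upper limits the Kupffer list of p16-LRTD went from -0.45 to -2.63 and that of p16-Alb-LRTD from -1.27 to -2.53. With the rule's limits doubled the Kupffer and proliferation lists of p16-LRTD were at -1.68 and -2.02, against -0.45 and -0.96. The proliferation list of p16-Alb-LRTD was at -0.47 under the upper limits, against -0.85. Alternatives chosen after seeing the data were a stellate profile from stellate-only barcodes at 30 or more per 10000, under which the portal list of p16-LRTD moved from 0.59 to 0.56 and Col1a1 from -0.91 and -1.26 to -0.77 and -1.13 relative to the mix, and the S100a9 barcode left out. The other settings were also extended after seeing the data to the lists against the mix and to the count of genes apart between genotypes. Differences between mice are beyond what 1 library per genotype can show.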
